A study of Mus musculus with 12 samples.

Results

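To describe retinoid metabolism in the murine submandibular gland (SMG), 9 genes were followed in a bulk RNA-sequencing experiment: *Aldh1a1*, *Aldh1a2*, *Aldh1a3*, *Aldh1a7*, *Rbp4*, *Cyp26b1*, *Dhrs9*, *Stra6* and *Rarb*. They were taken by symbol from a table of 56065 genes, and all 9 were found. The mice were 8 weeks old, and each of the 4 groups held 3 biological replicates. Wild-type C57BL/6J mice of each sex were compared with C57BL/6J-*Pou2f3*-/- mice of the same sex, in which the transcription factor that tuft cells (TCs) need is deleted in every cell of the animal. The study set the genotypes against each other within each sex, and the comparison of the sexes within each genotype was added here. RNA was taken from the whole gland, so that fewer cells of a type and less RNA per cell cannot be told apart.

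Vitamin A reaches tissues as retinol carried by RBP4, and STRA6 is a cell-surface receptor that lets retinol enter the cell. Alcohol dehydrogenases and short-chain dehydrogenases such as RDH10 and DHRS9 oxidize retinol to retinal. The enzymes ALDH1A1, ALDH1A2 and ALDH1A3 oxidize retinal to retinoic acid, and CYP26 enzymes degrade retinoic acid. Retinoic acid binds the receptors RARA, RARB and RARG, which pair with RXR receptors on DNA, and *Rarb* is itself a classical target gene. In the embryonic salivary gland, retinoic acid takes part in branching of the epithelium.

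Total counts per library ran from 47031917 to 67881902, and 17893 genes passed the filter on low counts. *Pou2f3* itself was at or near 0 in every group and did not check the genotypes: the estimated counts were 1, 0 and 2 in wild-type females, 0, 0 and 0 in *Pou2f3*-/- females, 1, 10 and 0 in wild-type males, followed by 0, 3 and 1 in *Pou2f3*-/- males. Of 9 TC markers, 4 passed the filter, and *Trpm5*, a channel of TCs, had between 0 and 4 counts per library. None of the 4 tested markers passed the test as lower in *Pou2f3*-/- mice of either sex, with the lowest values at −0.57 for *Alox5ap* in females (adjusted p = 0.315) and −0.17 for *Avil* in males (adjusted p = 0.935). *Avil*, an actin-binding protein abundant in TCs, rose in *Pou2f3*-/- females (log2 fold change 2.06 ± 0.57, adjusted p = 0.0139), from 18.0, 2.59 and 9.04 to 63.5, 24.3 and 39.7 normalized counts. This call was lost without *Pou2f3*-/- female 1 or wild-type female 3 (adjusted p up to 0.0722). The gland markers were as labelled, with the summed acinar transcripts abundant in all groups. All 8 transcripts of the granular convoluted tubule, a duct segment of male mice, were higher in males of either genotype. Single acinar transcripts varied, and *Smgc* was lower in wild-type males than in wild-type females (log2 fold change −8.50, edgeR adjusted p = 0.00375). The libraries differed in their clock genes: 12 of 14 differed between genotypes in females, where 36.9% of all genes tested did, and 11 of 14 in males, where 0.235% did.

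*Aldh1a1* and *Aldh1a7* are neighbours on chromosome 19, in opposite orientation, and their sequences are shown because the ability to count them separately rests on the bases at which they differ. *Aldh1a1* (ENSMUSG00000053279.9) lies at chr19:20469539-20622825 on the plus strand and *Aldh1a7* (ENSMUSG00000024747.4) at chr19:20667107-20704932 on the minus strand (GRCm39, Gencode M39). Each has a coding sequence of 1503 bases in 13 coding exons, of which 1377 bases, or 91.62%, are identical. The other pairs among the 4 *Aldh1a* genes shared between 67.4% and 68.77% of aligned coding bases. The first 150 coding bases, read from the canonical transcripts, differ at 10 bases, which are in capitals. For *Aldh1a1* they lie at chr19:20579376-20579441 and chr19:20588277-20588360, and for *Aldh1a7* at chr19:20704811-20704876 and chr19:20704343-20704426.
Aldh1a1: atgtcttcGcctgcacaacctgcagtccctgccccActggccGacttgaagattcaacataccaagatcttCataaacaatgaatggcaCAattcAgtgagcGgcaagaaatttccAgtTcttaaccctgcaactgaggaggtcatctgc
Aldh1a7: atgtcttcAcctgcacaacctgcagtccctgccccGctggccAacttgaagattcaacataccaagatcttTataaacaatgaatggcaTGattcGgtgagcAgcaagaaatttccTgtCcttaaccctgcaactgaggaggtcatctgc
Of the 31-base words of the canonical *Aldh1a7* transcript, 281 of 5242 (5.36%) also occur in another *Aldh1a* gene, and 281 of 6151 (4.57%) of those of *Aldh1a1*. For *Aldh1a2* and *Aldh1a3* the number was 0. Reads that fall wholly within such stretches cannot be assigned to either gene by sequence, and how the quantification divided them was not tested.

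The upstream regions of these neighbours are alike as well. In RefSeq (GRCm38.p6), 8 of the 9 genes have an entry, with 13 start sites in all; *Aldh1a3* was not matched. Windows of 250 bases upstream of the start were searched for 11 motifs on both strands. The octamer ATGCAAAT, the classical binding sequence of POU factors, of which POU2F3 is a member, was found at 1 of the *Aldh1a1* starts, at *Aldh1a7* and at *Aldh1a2*, while 1.6% of 32851 windows hold it. In the windows below it is in capitals, at 56 to 49 bases upstream of the start of either gene. They lie at chr19:20601718-20601967 on the plus strand for *Aldh1a1* and at chr19:20727557-20727806 on the minus strand for *Aldh1a7*.
Aldh1a1 upstream: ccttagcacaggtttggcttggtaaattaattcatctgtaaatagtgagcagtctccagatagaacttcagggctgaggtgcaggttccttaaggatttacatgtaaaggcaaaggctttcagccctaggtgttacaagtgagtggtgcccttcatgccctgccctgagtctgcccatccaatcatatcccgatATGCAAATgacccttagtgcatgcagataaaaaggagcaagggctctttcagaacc
Aldh1a7 upstream: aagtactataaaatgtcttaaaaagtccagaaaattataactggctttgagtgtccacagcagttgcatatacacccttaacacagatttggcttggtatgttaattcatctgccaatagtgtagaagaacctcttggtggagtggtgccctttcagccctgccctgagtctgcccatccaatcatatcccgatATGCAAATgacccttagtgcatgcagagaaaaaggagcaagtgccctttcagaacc
Of the 100 bases next to the start, 94 were identical between the genes. In the window of *Rarb*, at chr14:16575477-16575726 on the minus strand, the capitals mark a direct repeat with a spacing of 5 bases, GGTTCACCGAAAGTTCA, which is the kind of element that RAR and RXR bind. It lies 53 to 37 bases upstream of the start.
Rarb upstream: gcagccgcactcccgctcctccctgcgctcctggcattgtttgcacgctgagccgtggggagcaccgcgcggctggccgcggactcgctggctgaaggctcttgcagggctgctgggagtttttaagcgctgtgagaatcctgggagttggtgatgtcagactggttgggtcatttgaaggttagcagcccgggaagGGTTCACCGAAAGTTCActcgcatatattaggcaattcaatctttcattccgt
The search used 16 spellings of the repeat (known as DR5), and 0.0883% of the windows hold any of them. The clock elements CACGTG and TTATGTAA or TTACGTAA were in none of the 13 windows, against 6.02% and 0.931% of all windows. The motifs shown were chosen after the matches and the expression values were known, and a match describes letters only. The other motifs searched were the like repeat known as DR2 (in 0.174% of all windows), TGACGTCA (1.55%) and the glucocorticoid response element (0.0183%), which were in none of the 13 windows, and the short AGGTCA (14%, at *Dhrs9*), AGTTCA (11.8%, at *Rarb*, where it is the right arm of the repeat), TATAAA (12.4%, at *Aldh1a7*, *Cyp26b1*, *Dhrs9* and *Rbp4*) and CCAAT (33.8%, at 5 of the 8 genes).

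Among the 9 genes, the differences between genotypes that passed the test were all in *Aldh1a* genes and were all decreases. *Aldh1a7* fell 3.50-fold in *Pou2f3*-/- females and 2.07-fold in *Pou2f3*-/- males. *Aldh1a3* fell 1.80-fold in females and 2.00-fold in males. *Aldh1a1* fell 1.61-fold in females, while in males it was 1.25-fold lower and did not pass the test. Of the 8 genes that passed the filter on low counts, 3 fell and 0 rose in females, where 36.9% of all genes tested were called: 17.6% rose and 19.3% fell. In males 2 fell and 0 rose, where 0.235% of all genes tested were called: 0.101% rose and 0.134% fell. These 42 male calls over all genes were an unstable number, with 406 called by DESeq2, 389 without the filter, 635 without *Pou2f3*-/- male 1 and 13 without wild-type male 1 or 3. Of the 8 genes, 0 were called in males without *Pou2f3*-/- male 2 or 3. The 9 genes were chosen with earlier results of these data known. The counts called among them are therefore a description beside the share of all genes.

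*Aldh1a7*, a rodent paralogue of *Aldh1a1*, had the largest decrease of the 8 tested genes in females. Normalized counts, scaled to the mean effective library size, were 1757, 2158 and 1941 in wild-type females and 502, 580 and 589 in *Pou2f3*-/- females. They were 1075, 1455 and 970 in wild-type males, with 611, 496 and 581 in *Pou2f3*-/- males. The genotypes did not overlap in either sex, and the *Pou2f3*-/- females and males overlapped. The log2 fold change between genotypes was −1.81 ± 0.15 (SE, adjusted p = 3.47e-05) in females and −1.05 ± 0.15 (adjusted p = 0.0114) in males. The decrease was larger in females by 0.76 ± 0.21 on the log2 scale (interaction −0.76, adjusted p = 0.0207), and 25.7% of all genes tested had an interaction in either direction, 12.4% in this one. Males had less than females in wild type (log2 fold change −0.74 ± 0.15, adjusted p = 0.00154), and in *Pou2f3*-/- mice the difference was 0.01 ± 0.15 (adjusted p = 0.950). The male call was lost without *Pou2f3*-/- male 2 (adjusted p = 0.0873) or 3 (0.0601), and the interaction without wild-type male 1 (0.0586) or 3 (0.0506).

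**Figure D1:**
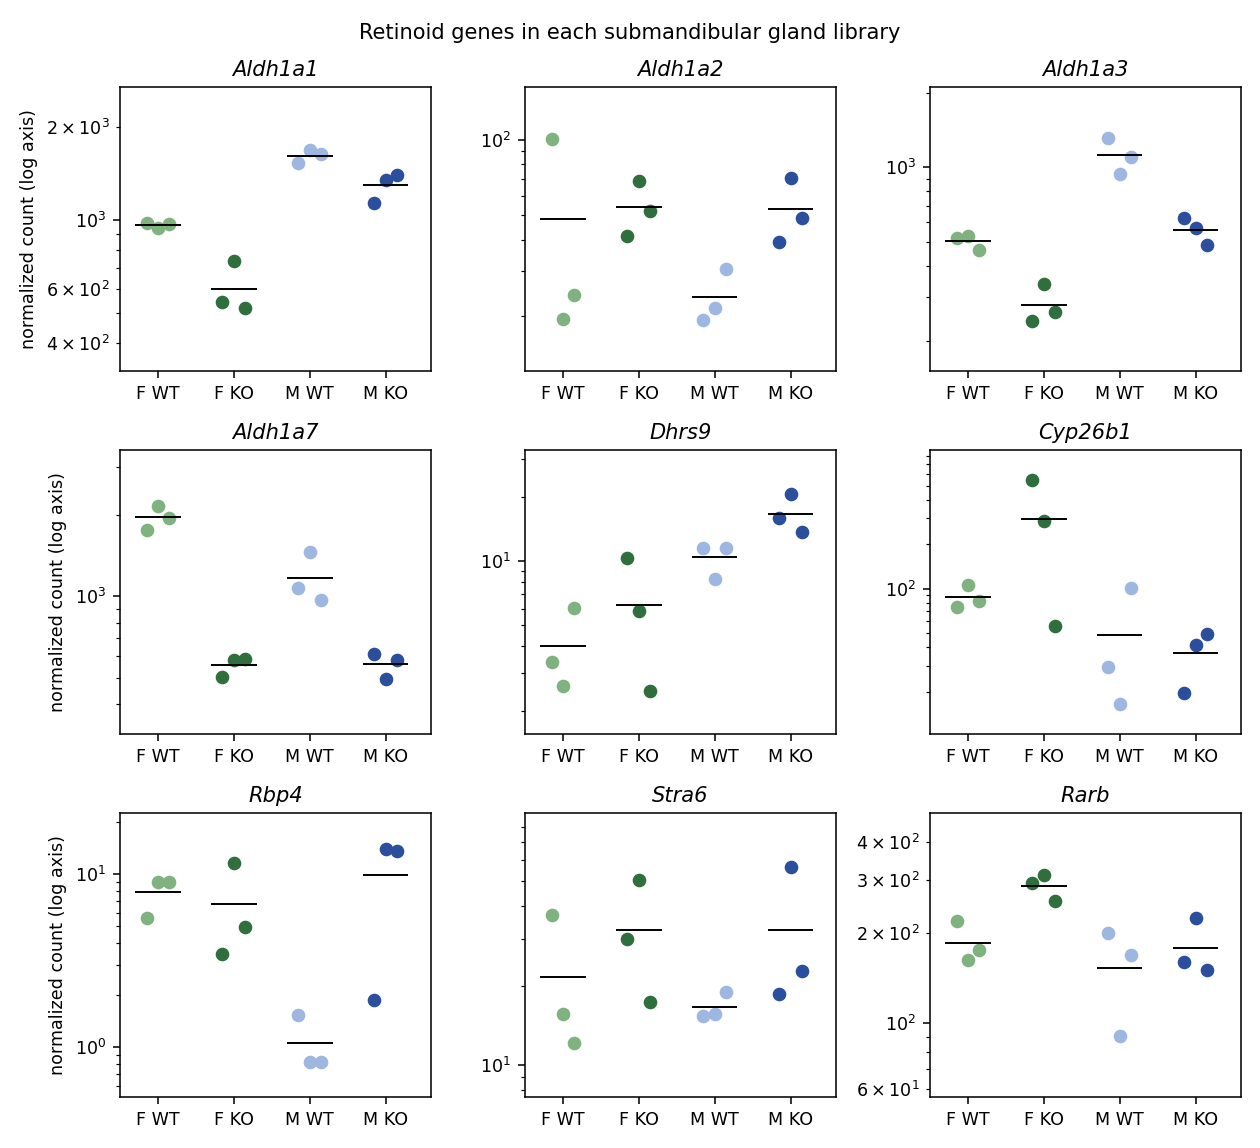
Normalized count of each of the 9 genes in each library (log axis, a separate scale for each gene), in wild-type (WT) and *Pou2f3*-/- (KO) females (F) and males (M). Points are libraries and bars are the means of 3. *Aldh1a1*, *Aldh1a3* and *Aldh1a7* show no overlap between genotypes in either sex. The same holds for *Rarb* in females only and for *Aldh1a2*, *Dhrs9* and *Rbp4* in males only. How many of all genes were without overlap was not counted. For *Aldh1a2* 1 library stands apart (wild-type female 1, 101), and for *Cyp26b1* the *Pou2f3*-/- females spread from 55.8 to 544.

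*Aldh1a3* (ENSMUSG00000015134.16; chr7:66040638-66077850, minus strand), which makes retinoic acid in several embryonic epithelia, had normalized counts of 521, 529 and 466 in wild-type females and 241, 338 and 260 in *Pou2f3*-/- females. In males they were 1314, 944 and 1101 in wild type and 623, 571 and 486 in *Pou2f3*-/-. Each genotype pair was separate, and each male group lay above the female group of its genotype. The decrease was −0.85 ± 0.16 on the log2 scale in females (adjusted p = 0.00140), in males *Aldh1a3* fell by 1.00 ± 0.15 (adjusted p = 0.0164), and these did not differ detectably (interaction 0.15 ± 0.22, adjusted p = 0.635). The male call was lost when *Pou2f3*-/- male 2 or 3 or wild-type male 1 or 3 was left out (adjusted p between 0.0700 and 0.0996), with the log2 fold change still between −1.11 and −0.87 across all libraries left out. It was also lost in a fit of the male libraries only (−0.98, adjusted p = 0.0508). Males exceeded females by 1.15 ± 0.15 in wild type (adjusted p = 8.05e-05) and by 1.00 ± 0.16 in *Pou2f3*-/- mice (adjusted p = 2.51e-04). Of 9 duct markers, 4 fell and 0 rose in females (44.4%, beside 36.9% of all genes called and 19.3% lower), and 1 fell and 0 rose in males (beside 0.235% of all genes). Of the ionocyte genes in this list, *Foxi1*, a transcription factor of ionocytes, fell by 0.48 ± 0.15 in females (log2, adjusted p = 0.0267) and by 0.83 ± 0.15 in males (adjusted p = 0.0434), and *Ascl3*, which marks the same cells, fell by 0.95 ± 0.29 in females (adjusted p = 0.0230), with −1.26 ± 0.29 in males (adjusted p = 0.108). *Cftr*, a chloride channel of ionocytes, had 0.72 ± 0.27 in females (adjusted p = 0.0541) and −0.04 ± 0.26 in males (adjusted p = 0.973), and *Krt19* and *Krt7* had 1.02 and 0.20 in females (adjusted p = 0.159 and 0.144). The calls of *Foxi1* in females and males and of *Ascl3* in females were kept with 9, 3 and 9 of the 12 libraries left out, respectively. The part of these cells in the *Aldh1a3* values was not tested.

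*Aldh1a1*, the main cytosolic retinal dehydrogenase of many adult tissues, had normalized counts of 981, 945 and 973 in wild-type females and 543, 738 and 519 in *Pou2f3*-/- females. In males they were 1533, 1679 and 1637 in wild type and 1135, 1351 and 1401 in *Pou2f3*-/-. The 4 groups were separate from each other, but only the female difference between genotypes passed the test, at −0.69 ± 0.13 (adjusted p = 0.00157) against −0.32 ± 0.13 in males (adjusted p = 0.334). A difference between these decreases was not detected (interaction −0.37 ± 0.18, adjusted p = 0.144), and it was called when *Pou2f3*-/- female 2 was left out (−0.63, adjusted p = 0.0110). Males were higher than females by 0.74 ± 0.13 in wild type (adjusted p = 5.87e-04) and by 1.11 ± 0.13 in *Pou2f3*-/- mice (adjusted p = 2.57e-05). Between genotypes in females, 2 of 8 acinar and 3 of 6 basal and myoepithelial markers also fell, and 0 rose. Beside them 36.9% of all genes were called and 19.3% fell. The part of these cells in the *Aldh1a1* and *Aldh1a7* values was not tested.

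*Aldh1a2* (ENSMUSG00000013584.6; chr9:71122630-71203527, plus strand), the enzyme that makes most retinoic acid in the early embryo, was a low transcript. Its normalized counts were 101, 19.5 and 24.1 in wild-type females, 41.6, 68.9 and 52.0 in *Pou2f3*-/- females, 19.2, 21.4 and 30.5 in wild-type males, with 39.2, 70.3 and 49.0 in *Pou2f3*-/- males. Apart from wild-type female 1, all wild-type libraries lay below all *Pou2f3*-/- libraries. No difference passed the test: the log2 fold change between genotypes was 0.15 ± 0.52 in females (adjusted p = 0.850) and 1.15 ± 0.53 in males (adjusted p = 0.431). Without wild-type female 1 the female value was 1.25 (adjusted p = 0.0292). That library also had the highest summed level of 6 macrophage markers, 12769 against 3842 and 5741 in the other wild-type females. Its sum of 6 lymphocyte markers was the highest as well, but only 1 of these, *Ptprc*, passed the filter on low counts. In *Pou2f3*-/- females, whose *Aldh1a2* counts lay above those of wild-type females 2 and 3, the macrophage sums were 3542, 6011 and 4672. In males they were 3671 to 4369 in wild type and 5195 to 9888 in *Pou2f3*-/-. The summed level of 8 fibroblast markers was 24066 to 26428 in wild-type males and 29794, 53287 and 41793 in *Pou2f3*-/- males. There 1 of the 8 rose, beside 0.101% of all genes tested (0.235% called). In females the fibroblast sum was 28120, 19229 and 25758 in wild type and 21201, 31566 and 24328 in *Pou2f3*-/-. There 0 of the 8 were called, beside 36.9% of all genes tested. The library with the highest fibroblast sum was also that with the highest *Aldh1a2* count in both *Pou2f3*-/- groups and in wild-type females. In wild-type males the sum was highest in replicate 2 (26428) and *Aldh1a2* in replicate 3 (30.5). The part of these cells in the *Aldh1a2* values was not tested.

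Compared per kilobase of transcript, *Aldh1a7* was the leading *Aldh1a* transcript of wild-type females. Its normalized count per kb was 370 ± 38.0 (SD, n = 3), followed by *Aldh1a1* with 156 ± 3.06, *Aldh1a3* with 125 ± 8.55 and *Aldh1a2* with 17.8 ± 17.0. In wild-type males *Aldh1a3* had 278 ± 46.1, *Aldh1a1* 261 ± 12.2 and *Aldh1a7* 221 ± 48.4, levels that overlapped between neighbours in this order. In *Pou2f3*-/- females *Aldh1a7* (105 ± 9.01) and *Aldh1a1* (96.8 ± 19.4) overlapped, and in *Pou2f3*-/- males *Aldh1a1* led with 209 ± 22.8, before *Aldh1a3* with 139 ± 17.2 and *Aldh1a7* with 107 ± 11.3. The share of *Aldh1a7* in the summed *Aldh1a* level was 50.6% to 58.4% in wild-type females, 32.5% to 39.9% in *Pou2f3*-/- females, 25.1% to 34.9% in wild-type males and 19.6% to 24.7% in *Pou2f3*-/- males. The sum itself was 649 to 700 per kb in wild-type and 258 to 338 in *Pou2f3*-/- females, and 732 to 788 in wild-type and 468 to 479 in *Pou2f3*-/- males. Levels between genes depend on the length assigned to each. The canonical transcript was used (6202 bases for *Aldh1a1*, 5282 for *Aldh1a7*, 4028 for *Aldh1a3* and 2705 for *Aldh1a2*). All annotated exons have 10740 bases for *Aldh1a1*, 5693 for *Aldh1a3*, 4623 for *Aldh1a2* and the same 5282 for *Aldh1a7*. With these lengths the first 3 genes would be lower against *Aldh1a7*, which would have the highest mean in wild-type males. The orders and shares above hold for the canonical lengths.

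**Figure D2:**
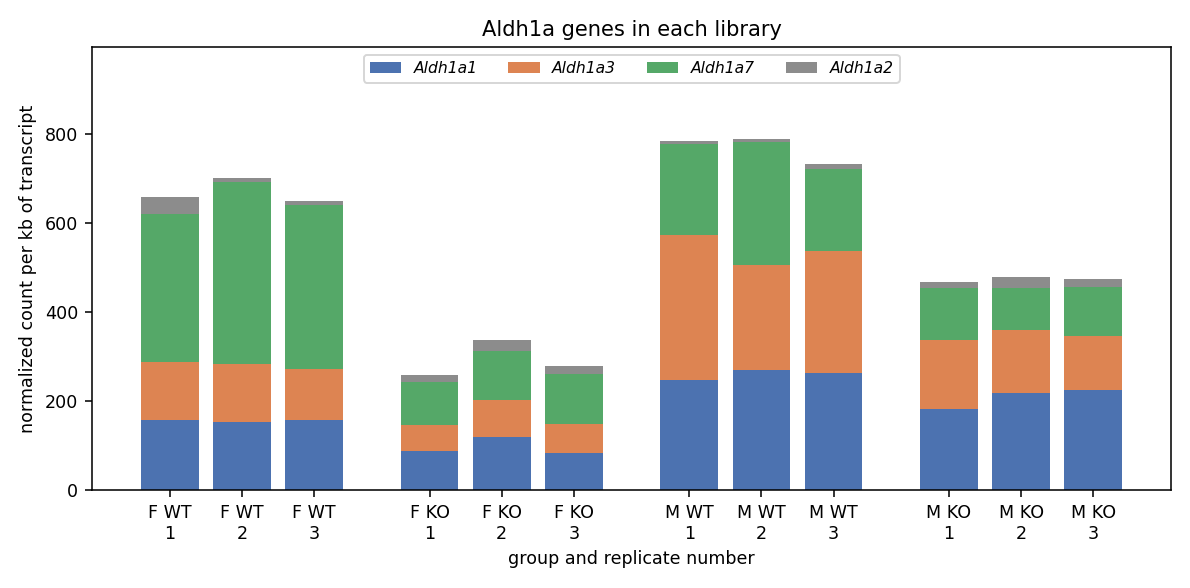
Stacked normalized counts per kb of canonical transcript of the 4 *Aldh1a* genes in each of the 12 libraries, by group (WT, wild type; KO, *Pou2f3*-/-; F, female; M, male) and replicate number. The *Aldh1a7* segment is the largest in wild-type females, at 333 to 409 per kb, and lies between 93.9 and 116 in all 6 *Pou2f3*-/- libraries.

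Ratios within a library do not depend on its scaling. The count of *Aldh1a7* over that of *Aldh1a1* was 2.02 ± 0.247 (SD, n = 3) in wild-type females, 0.948 ± 0.175 in *Pou2f3*-/- females, 0.720 ± 0.138 in wild-type males and 0.440 ± 0.0883 in *Pou2f3*-/- males. Every pair of groups compared was separate (exact two-sided permutation test over 3 against 3 libraries, p = 0.1 in each of the 4 comparisons, which is the smallest p this design allows). In contrast, *Aldh1a7* over *Aldh1a3* was 1.08 ± 0.401 in wild-type and 1.02 ± 0.167 in *Pou2f3*-/- males (exact permutation p = 0.9), and 3.87 ± 0.434 and 2.02 ± 0.277 in wild-type and *Pou2f3*-/- females (exact permutation p = 0.1). *Aldh1a3* over *Aldh1a1* was 0.523 ± 0.0412 and 0.468 ± 0.0297 in wild-type and *Pou2f3*-/- females (exact permutation p = 0.2), and 0.697 ± 0.149 and 0.439 ± 0.102 in wild-type and *Pou2f3*-/- males (exact permutation p = 0.1). These were 12 comparisons in all, none of which could pass an adjusted threshold.

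Transcripts with the most similar pattern were taken over the 12 libraries by Pearson correlation of log2 CPM, as a description. The libraries fall into 4 groups and share their scaling, so that high values are common. For *Aldh1a7* they were *Nr1d2* (r = 0.977), a repressor of the circadian clock, *Ppp1r15b* (0.961) and *Sec22c* (0.955). For *Aldh1a3* they were *Acsl6* (0.979), *Galnt11* (0.961) and *Foxi1* (0.954). For *Aldh1a1* they were *Pdp2* (0.971), *Por* (0.971) and *Trim44* (0.966). *Aldh1a2* was closest to *Socs3* (0.951), *Naip6* (0.948) and *Stk10* (0.946), and *Cyp26b1* to *Shank3* (0.925), *Kremen1* (0.912) and *Zfp879* (0.878). *Rarb* was closest to *Runx1* (0.939), *9030624G23Rik* (0.927) and *Gm38115* (0.918), *Dhrs9* to *Eva1b* (0.931), *Chst8* (0.926) and *Bax* (0.924), and *Stra6* to *Kctd17* (0.945), *Mtcl2* (0.903) and *Tppp3* (0.896).

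Clock genes differed between genotypes in the same libraries. In females 3 of 14 rose and 9 fell (36.9% of all genes tested were called), and in males 3 rose and 8 fell (0.235% of all genes). *Bmal1*, an activator of the clock, rose by 3.45 ± 0.21 (log2, adjusted p = 2.04e-06) in *Pou2f3*-/- females and by 2.87 ± 0.20 (adjusted p = 1.41e-05) in *Pou2f3*-/- males. *Dbp*, an output gene of the clock, fell by 2.58 ± 0.18 (adjusted p = 7.22e-06) and 3.17 ± 0.19 (adjusted p = 6.39e-06). *Nr1d2* fell by 0.94 ± 0.10 (adjusted p = 1.52e-04) and 0.70 ± 0.10 (adjusted p = 0.0131). The summed normalized count of all 14 genes was 35396 to 36795 in wild-type and 18943 to 22917 in *Pou2f3*-/- females, and 25599 to 28748 in wild-type and 15058 to 16520 in *Pou2f3*-/- males. The times of day at which the glands were taken are not given in the sources used here, and the part of the clock in the differences of *Aldh1a1*, *Aldh1a3* and *Aldh1a7* was not tested.

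**Figure D3:**
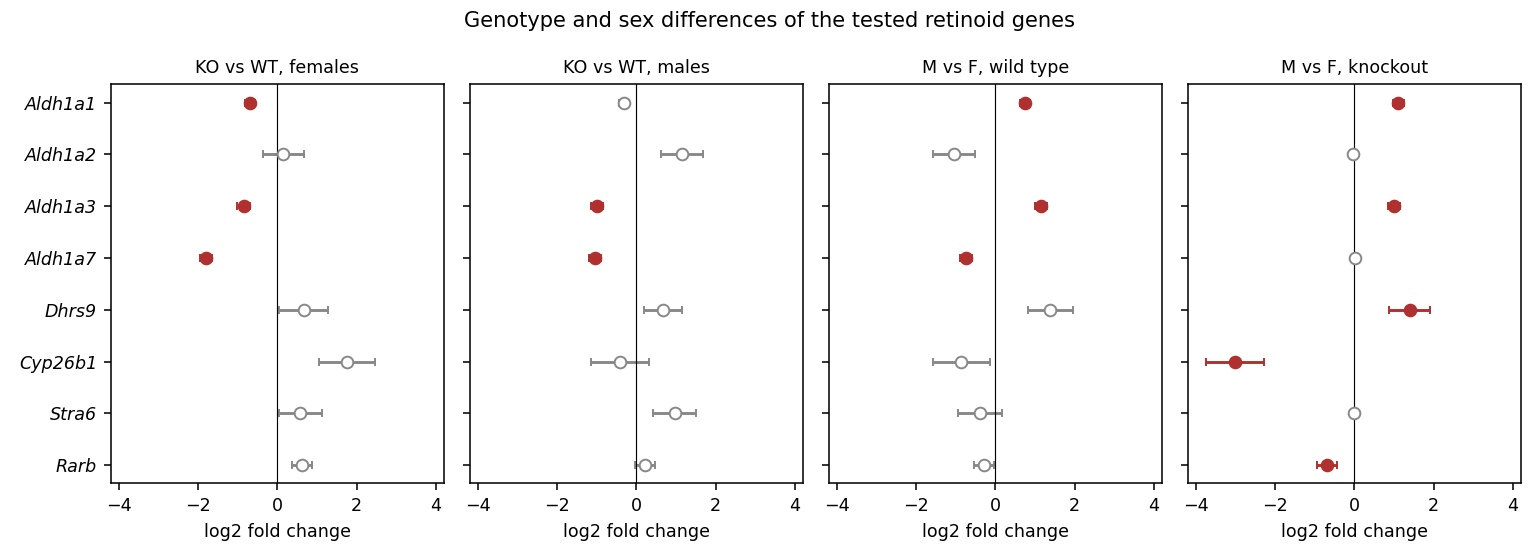
Log2 fold changes of the 8 tested genes between genotypes in each sex and between sexes in each genotype (WT or wild type; KO or knockout, *Pou2f3*-/-). Points are estimates of the edgeR fit, bars are standard errors (not drawn for estimates within 0.05 of 0), and filled points have an adjusted p under 0.05; *Aldh1a3* and *Aldh1a7* lie below 0 in the genotype comparison of either sex.

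*Dhrs9* (ENSMUSG00000027068.7; chr2:69210776-69234877, plus strand), a retinol dehydrogenase, was measured with 119 counts over all libraries. Normalized counts were 3.37, 2.59 and 6.03 in wild-type females, 10.4, 5.82 and 2.48 in *Pou2f3*-/- females, 11.5, 8.21 and 11.5 in wild-type males, with 15.9, 20.6 and 13.6 in *Pou2f3*-/- males. The male groups lay above the female group of the same genotype. The sex difference in *Pou2f3*-/- mice was 1.40 ± 0.51 (adjusted p = 0.0426) and in wild type 1.39 ± 0.57 (adjusted p = 0.0745). The first of these calls was lost under 7 of 9 other settings and with 8 of the 12 libraries left out, with adjusted p up to 0.141. These settings included the fit without the filter (adjusted p = 0.131). *Dhrs9* passed the filter through its male libraries, where it is high, so the call is no support for a sex difference. Between genotypes the log2 fold change was 0.66 ± 0.61 in females (adjusted p = 0.424) and 0.67 ± 0.48 in males (adjusted p = 0.644). From the counts of females, 9 in wild type and 17 in *Pou2f3*-/-, the ratio was 1.62. Its 95% interval for counting error ran from 0.685 to 4.13, which holds equal levels and leaves out the spread between mice.

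*Cyp26b1* (ENSMUSG00000063415.13; chr6:84548396-84570890, minus strand), which breaks down retinoic acid, had normalized counts of 75.3, 106 and 82.9 in wild-type females and 544, 288 and 55.8 in *Pou2f3*-/- females. In males they were 29.2, 16.4 and 101 in wild type and 19.6, 41.2 and 49.0 in *Pou2f3*-/-. Of the *Pou2f3*-/- females, replicates 1 and 2 lay above all other libraries and replicate 3 lay below all wild-type females. The log2 fold change between genotypes was 1.75 ± 0.70 in females (adjusted p = 0.0670) and −0.41 ± 0.74 in males (adjusted p = 0.888). The female difference passed the test without *Pou2f3*-/- female 3 (2.19, adjusted p = 0.0171), whereas without *Pou2f3*-/- female 1 it was 0.92 (adjusted p = 0.368). It also passed without wild-type male 3 (1.74, adjusted p = 0.0404) and without the filter on low counts (1.74, adjusted p = 0.0114). Males were below females in *Pou2f3*-/- mice by 3.01 ± 0.74 on the log2 scale (log2 fold change −3.01, adjusted p = 0.00561), a call kept in all 10 other settings and with each library left out, at values from −3.44 to −2.17. The smallest of these, without *Pou2f3*-/- female 1, had an adjusted p of 0.0375. In wild type the difference was −0.86 ± 0.72 (adjusted p = 0.374), and the interaction of genotype and sex was 2.16 ± 1.01 (adjusted p = 0.130), which passed without the filter (2.14, adjusted p = 0.0437) and without *Pou2f3*-/- female 3 (2.56, adjusted p = 0.0493).

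*Rbp4* (ENSMUSG00000024990.14; chr19:38105066-38113754, minus strand), the carrier of retinol in blood, was near the detection limit with 73 counts over all libraries and did not pass the filter. Estimated counts were 5, 7 and 6 in wild-type females, 3, 12 and 4 in *Pou2f3*-/- females, 2, 1 and 1 in wild-type males, with 2, 15 and 15 in *Pou2f3*-/- males. The *Pou2f3*-/- males were divided, with replicate 1 at the level of wild type. Summed over libraries and scaled, *Pou2f3*-/- over wild-type males gave a ratio of 9.21 (95% interval for counting error 3.27 to 35.9), and the female ratio was 0.907 (0.451 to 1.83). Without the filter the male difference had an adjusted p of 0.116, and wild-type males were below wild-type females (log2 fold change −2.74, adjusted p = 0.0403). *Rbp4* passed the filter when any library but *Pou2f3*-/- male 3 was left out, since the smallest group then held 2. Its male difference was then called without *Pou2f3*-/- male 1 (3.55, adjusted p = 0.0205), and its interaction without *Pou2f3*-/- male 1 (−3.75, adjusted p = 0.0148), *Pou2f3*-/- female 2 (−4.03, adjusted p = 0.0269) or wild-type female 1 (−3.57, adjusted p = 0.0404). The sex difference in wild type was called in 6 of these 11 fits (adjusted p up to 0.0793). *Rbp4* entered these fits mainly through the 15 counts each of *Pou2f3*-/- males 2 and 3, the group where it is high. Its calls there are therefore no support for a male difference or an interaction. *Rbp4* is abundant in fat, and the summed level of 10 adipocyte markers was 1145, 5786 and 3606 in *Pou2f3*-/- males 1, 2 and 3 and 852 to 1240 in wild-type males. In wild-type females, however, replicate 3 had the highest sum (6912) with 6 *Rbp4* counts. The part of fat in the *Rbp4* values was not tested.

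*Stra6* (ENSMUSG00000032327.15; chr9:57970967-58063543, plus strand), the retinol receptor, had normalized counts of 37.1, 15.6 and 12.1 in wild-type females, 30.0, 50.5 and 17.3 in *Pou2f3*-/- females, 15.4, 15.6 and 19.0 in wild-type males, with 18.7, 56.2 and 22.7 in *Pou2f3*-/- males. The groups overlapped in all comparisons. The log2 fold change between genotypes was 0.58 ± 0.55 in females (adjusted p = 0.433) and 0.96 ± 0.54 in males (adjusted p = 0.535). Here too the highest library of both *Pou2f3*-/- groups and of wild-type females was that with the highest fibroblast sum. In wild-type males *Stra6* was highest in replicate 3 and the fibroblast sum in replicate 2. The part of fibroblasts in the *Stra6* values was not tested.

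*Rarb* (ENSMUSG00000017491.10; chr14:5650540-6041094, plus strand in GRCm39), the receptor whose upstream window holds the direct repeat shown above, had normalized counts of 219, 162 and 175 in wild-type females and 292, 312 and 255 in *Pou2f3*-/- females. In males they were 199, 90.3 and 168 in wild type and 159, 224 and 150 in *Pou2f3*-/-. Females did not overlap between genotypes, while males did. The female difference was 0.63 ± 0.26 (adjusted p = 0.0729) and the male difference 0.22 ± 0.26 (adjusted p = 0.811). The female value passed the test under upper-quartile scaling (0.73, adjusted p = 0.0483), with the authors' factors (0.86, adjusted p = 0.0271), in a fit of female libraries only (0.61, adjusted p = 0.0233) and without wild-type male 2 (0.62, adjusted p = 0.0231). *Pou2f3*-/- males were below *Pou2f3*-/- females by 0.69 ± 0.26 (log2 fold change −0.69, adjusted p = 0.0434), a call lost with 9 of the 12 libraries left out, with adjusted p up to 0.152.

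Between the sexes, 3 of the 8 tested genes differed in wild type and 5 in *Pou2f3*-/- mice. The second count was 3 with a replicate block and with several single libraries left out (*Aldh1a1*, *Aldh1a3* and *Cyp26b1*). In wild type 2 of the 8 tested genes were higher in males (*Aldh1a1* and *Aldh1a3*) and 1 was lower (*Aldh1a7*), where 36.5% of all genes tested were called, 20.5% higher and 16% lower. In *Pou2f3*-/- mice 3 were higher (*Aldh1a1*, *Aldh1a3* and *Dhrs9*) and 2 lower (*Cyp26b1* and *Rarb*). Over all genes 43.5% were called there, 23.2% higher and 20.3% lower. *Dhrs9* passed the filter through its male libraries, with 10 to 22 counts against 2 to 9 in females. Its call is therefore no support for a sex difference, and it was lost without the filter (adjusted p = 0.131). Summed marker levels of gland cell types also differed between the sexes. The summed level of the 8 convoluted tubule markers was 55402 to 147835 in the 6 female libraries and 4149830 to 7562920 in the 6 male libraries. That of the 8 acinar markers was 2787560 to 3417850 in wild-type and 1743380 to 2274920 in *Pou2f3*-/- females. In males the acinar sum was 747264 to 1066710 in wild type and 628760 to 761538 in *Pou2f3*-/-. The part of tissue makeup in the sex differences was not tested.

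To place these genes in their pathway, a list of 53 retinoid genes was examined, of which 37 passed the filter. This list too was chosen with earlier results of these data known. In females 3 rose and 8 fell, or 29.7% of those tested, with a median log2 fold change of 0.15 against 0.03 over all genes. In males 0 rose and 2 fell, *Aldh1a3* and *Aldh1a7* (5.41% of those tested, beside 0.235% of all genes). The 29 tested genes of the list other than the 8 above held 8 calls in females (27.6%), beside 36.9% of all genes, and the difference of these shares was not tested. In males edgeR called 0 of them. An unadjusted p under 0.05 was seen for 2 of the 29 (11.5% of all genes), and DESeq2 called 1 (2.41% of all genes to which it gave an adjusted p).

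By step of the pathway, 5 of 12 oxidoreductases between retinol and retinal (41.7%) were called in females, beside 36.9% of all genes, with 1 rising and 4 falling. *Dhrs4* fell by 0.76 ± 0.15 (log2, adjusted p = 0.00182), *Adh1* by 0.61 ± 0.14 (adjusted p = 0.00434), *Rdh10*, the retinol dehydrogenase needed in the embryo, by 0.50 ± 0.11 (adjusted p = 0.00405) and *Rdh14* by 0.48 ± 0.16 (adjusted p = 0.0285). *Rdh5*, best known from the visual cycle, rose by 0.95 ± 0.31 (adjusted p = 0.0289). Among uptake and storage genes 1 of 8 changed in females, *Rbp7*, a retinol-binding protein of adipose and endothelial tissue, which fell by 1.56 ± 0.51 (adjusted p = 0.0298). Of 10 adipocyte markers 3 fell and 1 rose in females, with sums of 990 to 6912 in wild-type and 1958 to 2211 in *Pou2f3*-/- females. Of 4 endothelial markers 1 fell (*Kdr*, −0.51 ± 0.15, adjusted p = 0.0202). Beside these counts, 36.9% of all genes tested were called in females, 17.6% higher and 19.3% lower. The *Rbp7* call was lost without wild-type female 3, which had the highest adipocyte sum, or *Pou2f3*-/- female 2 or 3 (adjusted p up to 0.156), and the part of these cells in the *Rbp7* values was not tested. Of the 6 receptors, *Rara* rose by 0.40 ± 0.11 (adjusted p = 0.0154) and *Rarg* by 0.45 ± 0.14 (adjusted p = 0.0233) in females. With a library left out, the calls of *Dhrs4*, *Adh1* and *Rdh10* were kept in all 12 cases, those of *Rdh5*, *Rdh14* and *Rarg* in 8, that of *Rbp7* in 9 and that of *Rara* in 7. *Rxra*, *Rxrb* and *Rxrg* had log2 fold changes of −0.17, 0.15 and −0.22 (adjusted p = 0.136, 0.238 and 0.667). Of 9 tested genes known to respond to retinoic acid, *Rarb*, *Cyp26b1* and *Stra6* included, 0 passed the test of edgeR in females or in males. An unadjusted p under 0.05 was seen for 4 of them in females and 1 in males, beside 46.3% and 11.5% of all genes. DESeq2 called 0 and 1, beside 39.1% and 2.41% of all genes.

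**Figure D4:**
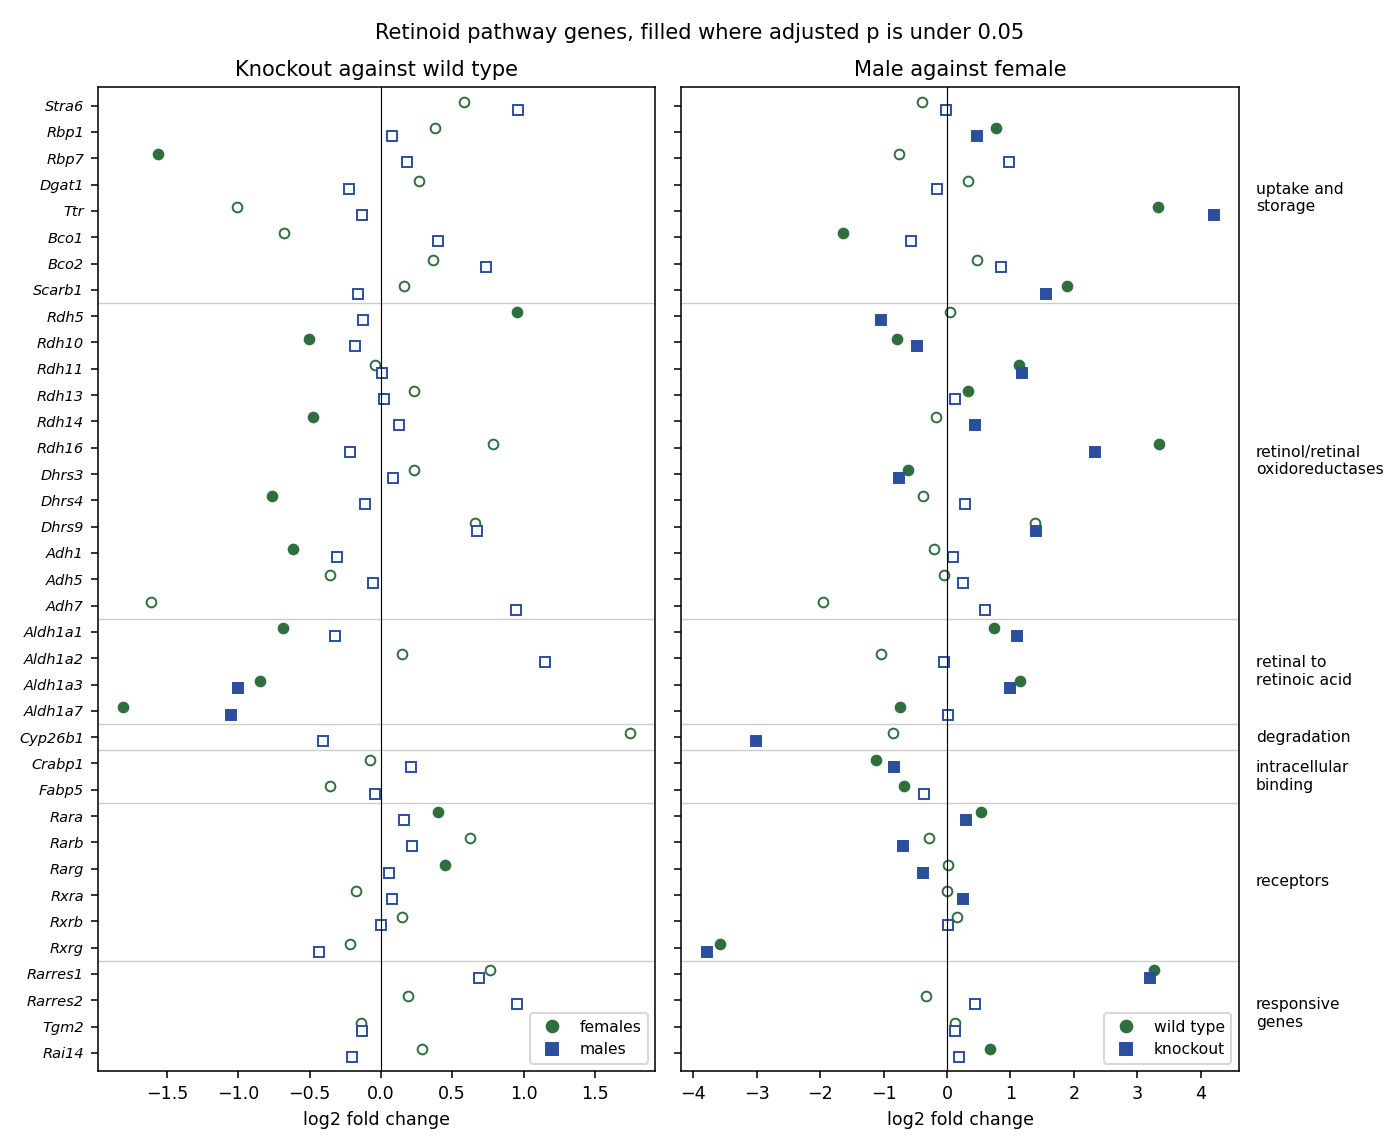
Log2 fold changes of the 37 tested retinoid genes, grouped by step, for *Pou2f3*-/- against wild type (left, females and males) and for males against females (right, wild type and *Pou2f3*-/-). Filled symbols have an adjusted p under 0.05 (edgeR); among genotype differences in males only *Aldh1a3* and *Aldh1a7* are filled.

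Between the sexes, in wild type 11 of the 37 genes were higher in males and 7 lower (48.6%, beside 36.5% of all genes), and in *Pou2f3*-/- mice 12 were higher and 8 lower (54.1%, beside 43.5% of all genes). Among those higher in males was *Rdh16*, a retinol dehydrogenase, with log2 fold changes of 3.34 ± 0.30 (adjusted p = 2.94e-06) in wild type and 2.33 ± 0.28 (adjusted p = 3.29e-05) in *Pou2f3*-/- mice, and also *Ttr*, the partner of RBP4 in blood, with 3.33 ± 0.39 (adjusted p = 2.68e-05) and 4.21 ± 0.42 (adjusted p = 7.50e-06). *Rxrg* went the other way, with −3.58 ± 0.42 (adjusted p = 2.73e-05) and −3.79 ± 0.44 (adjusted p = 2.35e-05). Its normalized counts were 109 to 151 in the 6 female and 2.72 to 18.1 in the 6 male libraries. *Crabp1*, which binds retinoic acid in the cytoplasm, was lower in males by 1.12 ± 0.30 (log2 fold change −1.12, adjusted p = 0.0110) and 0.83 ± 0.30 (log2 fold change −0.83, adjusted p = 0.0392). The wild-type call was lost without wild-type female 3 or wild-type male 1 (adjusted p up to 0.0517). In *Pou2f3*-/- mice the groups overlapped, and the call was lost without *Pou2f3*-/- female 2 or 3, *Pou2f3*-/- male 1 or 3, wild-type female 1 or 2 or wild-type male 3, with values from −1.06 to −0.35 and adjusted p up to 0.330 over all libraries left out. *Crabp2*, *Cyp26a1* and *Cyp26c1* did not pass the filter, with group means between 0 and 6.20 normalized counts.

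In the fit of all libraries, the interaction of genotype and sex was called for *Aldh1a7* alone among the 8 tested genes. Over all genes tested 25.7% were called. The *Aldh1a7* call depended on the 2 wild-type male libraries named above. Other settings or left-out libraries also gave calls for *Aldh1a1* and *Cyp26b1*, as given with these genes. Calls for *Rbp4* came only from left-out fits, which it entered mainly through *Pou2f3*-/- males 2 and 3. The female and male log2 fold changes of *Aldh1a7* lay between −2.0 and −1.7 and between −1.17 and −0.86 across all settings and left-out libraries. For *Aldh1a1* the corresponding ranges were −0.91 to −0.58 and −0.38 to −0.23, and for *Aldh1a3* −1.06 to −0.71 and −1.11 to −0.87.

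**Figure D5:**
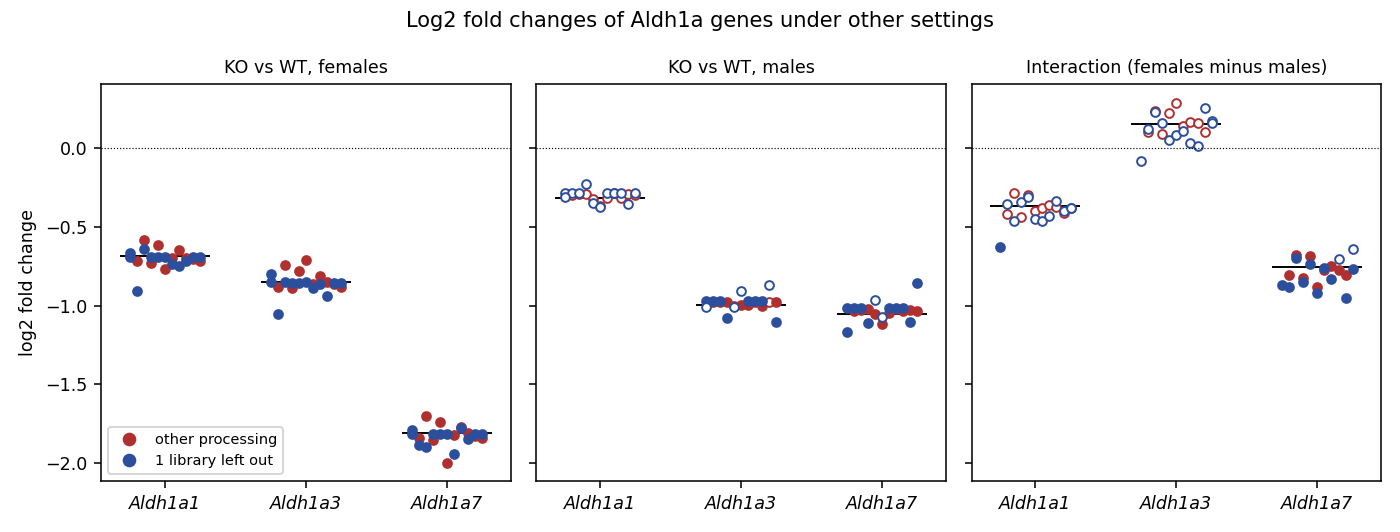
Log2 fold changes between genotypes of *Aldh1a1*, *Aldh1a3* and *Aldh1a7* in females and in males, and the interaction (female minus male), under other processing settings (red) and with 1 library left out (blue). Lines mark the reported values and filled points an adjusted p under 0.05; female values are filled throughout, while several male values of *Aldh1a3* and *Aldh1a7* are open.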

How the data were processed

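Gene expression was measured in 12 libraries of mouse SMG. The methods describe stranded, ribosome-depleted total RNA libraries, whereas the labels name polyA RNA. The authors quantified the reads with Salmon 1.10.1 against Gencode M35 (GRCm39) and deposited estimated counts per gene. Their deposited normalized signal, these counts over factors specific to gene and library, served for 1 alternative; how the factors were made is not given in the sources used here. Groups were taken from the deposited labels.

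Estimated counts were rounded and analysed with edgeR 4.0.16 in R 4.3.3: TMM scaling, filterByExpr with its defaults (17893 genes kept), and a quasi-likelihood fit with 1 mean for each of the 4 groups. P-values were adjusted by Benjamini-Hochberg over all genes tested, with a threshold of 0.05. They set each difference against the spread between mice within groups, estimated from all libraries in the fit and moderated over genes. SE is the absolute log2 fold change over the square root of F. Normalized counts are counts over the effective library size times its mean; log2 CPM used a prior count of 2. Intervals of count ratios cover counting error only. Symbols and positions are those of Gencode M39, which holds 55563 of 56065 identifiers, and sequences were read with Biopython 1.88. The canonical transcript was chosen for lengths after annotated lengths had been seen. In simulated data with 200 genes changed 3-fold in females among 17503 genes, 89.5% were recovered and 4.28% of calls were false. The changed genes were taken from abundant ones only. Smaller changes, changes in low transcripts and a share of changed genes like that called in females were not simulated. Alternatives were RLE, upper-quartile and protein-coding TMM scaling, the 20 most abundant genes left out, the authors' factors, no filter or at least 10 counts in every library, a replicate block, fits of the compared libraries only, DESeq2 1.42.0, and each library left out.

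Named genes are the 9 members, other genes of the retinoid list that passed the threshold together with its receptor, Cyp26 and Crabp genes, the 3 genes closest in pattern to each member, *Pou2f3*, and markers that moved with a member. The members and lists were chosen with earlier results of these data known.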

Additional observations from a re-analysis of the deposited data

Results flagged for a closer look

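The difference between genotypes was unlike in females and males for 3 of the 37 tested retinoid genes, by the interaction term of the edgeR fit over 3 mice in each of the 4 groups, where 25.7% of all genes tested passed. *Aldh1a7* had an interaction of −0.76 (log2, adjusted p = 0.0207), with a larger decrease in *Pou2f3*-/- females than in *Pou2f3*-/- males. *Dhrs4* had an interaction of −0.65 ± 0.21 (adjusted p = 0.0363), with log2 fold changes of −0.76 in females and −0.11 in males. This interaction was lost without *Pou2f3*-/- female 3, *Pou2f3*-/- male 1 or 3 or wild-type male 1 or 3 (adjusted p up to 0.0933). *Rai14*, named for its induction by retinoic acid, had an interaction of 0.49 ± 0.15 (adjusted p = 0.0316), with 0.29 in females and −0.20 in males, neither of which passed the test on its own. This interaction was kept with only 2 of the 12 libraries left out, *Pou2f3*-/- male 1 and wild-type male 2, and was lost with each of the others (adjusted p up to 0.0962). The normalized counts of *Rai14* were 727 to 787 in wild-type and 917 to 947 in *Pou2f3*-/- females. In males the genotypes overlapped (edgeR adjusted p = 0.497).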

How the results depend on the processing

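Of 859 values of the 8 tested genes under 10 other settings and 12 left-out libraries, 775 kept their direction and side of the threshold, 35 lost a call, 11 gained one and 38 changed sign, of which 0 had passed the test. The female decreases of *Aldh1a1*, *Aldh1a3* and *Aldh1a7*, and their sex differences in wild type, were kept in all of these. Members called ranged from 0 to 3 in males with a library left out (0 without *Pou2f3*-/- male 2 or 3), from 0 to 3 for the interaction and from 3 to 4 between the sexes of *Pou2f3*-/- mice; in females they were 3 or 4. With a library left out, called pathway genes ranged from 7 to 13 in females, 0 to 4 in males, 0 to 6 for the interaction and 11 to 19 between the sexes of *Pou2f3*-/- mice. Fits of the compared libraries only gave 1 member and 1 pathway gene in males (*Aldh1a7* in both cases), upper-quartile scaling 18 pathway genes in females, the authors' factors 5 for the interaction, and no filter 2 members for the interaction. The cause of these changes was not tested. Replicate numbers do not pair the mice: same-numbered libraries had correlated deviations of 0.0501, −0.102 and −0.113 in females and 0.0904, 0.0044 and −0.135 in males. With a replicate block, members called between the sexes of *Pou2f3*-/- mice were 3 instead of 5, and genes called in females were 6349 instead of 6611.

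Signs changed only among values that had not passed the test. The *Dhrs9* interaction was 0.067 with upper-quartile and 0.060 with protein-coding scaling. The sex difference in *Pou2f3*-/- mice became −0.15 and −0.0731 for *Aldh1a7* under these scalings, 0.0039 and 0.021 for *Aldh1a2* with the 20 most abundant genes left out and with the authors' factors, and 0.031 and 0.0012 for *Stra6* with those 20 left out and with no filter. With a library left out, the genotype difference ranged from −0.26 to 1.25 for *Aldh1a2* in females, and in males from −0.82 to 0.68 for *Cyp26b1* and from −0.046 to 0.46 for *Rarb*. The interaction ranged from −1.45 to 0.062 for *Aldh1a2*, −0.086 to 0.25 for *Aldh1a3*, −0.64 to 0.29 for *Dhrs9* and −0.92 to 0.26 for *Stra6*. The sex difference ranged from −1.43 to 0.084 for *Aldh1a2* and −0.67 to 0.22 for *Stra6* in wild type, and from −0.29 to 0.23 for *Aldh1a2*, −0.042 to 0.11 for *Aldh1a7* and −0.66 to 0.51 for *Stra6* in *Pou2f3*-/- mice.

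Upper-quartile scaling put the median log2 fold change of all genes at 0.13 instead of 0.03 in females and at −0.18 instead of −0.02 between the sexes of *Pou2f3*-/- mice, and the share of calls that were higher at 59.7% instead of 47.8% and 38.0% instead of 53.3%. Genes called in males were 42, 389 without the filter, 406 with DESeq2, 31 with the authors' factors or compared libraries only, and 13 to 635 with a library left out. The counting intervals given for the ratios of *Rbp4* in males and *Dhrs9* in females were 3.27 to 35.9 and 0.685 to 4.13. They cover counting error only and leave out the spread between mice.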
